A study of Sus scrofa with 4 samples.

Results

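Cadherins and protocadherins are calcium-dependent adhesion proteins of the cell surface. Classical cadherins bind like molecules on a neighbouring cell through their outer domains, and their tails bind catenins, which join them to the actin skeleton. Protocadherins carry related outer domains with other tails, and many are best known from neurons. In the lung, CDH1 (E-cadherin) is the classical cadherin of epithelium and CDH5 (VE-cadherin) that of endothelium, and mesenchymal cells are known for CDH2 and CDH11.

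The genes described here are the rows of the deposited count tables whose gene name begins with CDH or PCDH and continues with digits and capital letters only, apart from CDH1 and CDH5. This rule, which uses no measured value, gave 43 of the 29263 genes. They were measured by RNA sequencing in lung cells of pigs with an LGR5-H2B-GFP knock-in, a genotype that all 4 libraries share, in which a histone carrying green fluorescent protein (H2B-GFP) is expressed from LGR5. Cells were sorted by green fluorescence into GFP-HI (2 libraries) and GFP-NEG (2 libraries), and each group has a biological replicate 1 and 2. No library from an unmodified pig was among the samples, no treatment is named, and the labels' protocol covers adult and fetal lung together. The name of the deposited comparison table contains the words adult pig and no other statement of stage was found. Headings of the deposited comparison table name pig 1 and pig 2 in both groups. The same replicate number is therefore taken to stand for the same pig in GFP-HI and GFP-NEG. The fit used group alone and ignored this pairing, so its errors and p-values are those of unpaired groups. Values from a model blocked on replicate number are given where they changed a call and for the genes that rose. The labels themselves give no number of animals. In bulk libraries, fewer cells of a type and less RNA per cell cannot be told apart.

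Library totals were 24200550 and 24689986 counts for GFP-HI against 6292253 and 7045652 counts for GFP-NEG, so depth and group cannot be told apart. The shallower GFP-NEG libraries nevertheless had counts in more genes, 24120 and 25985 against 18752 and 18392 in GFP-HI. Of the cadherins and protocadherins described here, 37 and 41 had counts in GFP-NEG against 34 and 30 in GFP-HI. LGR5 was at 146 and 152 CPM (counts scaled to library size with TMM factors) in GFP-HI and at 1.55 and 0.767 CPM in GFP-NEG, which matches the labels. The 11 fibroblast markers summed to 88130 and 84080 CPM in GFP-HI and to 26620 and 9563 CPM in GFP-NEG, and 8 of the 11 were called higher in GFP-HI. The endothelial markers summed to 197 and 205 CPM against 1260 and 547 CPM (10 of 11 called lower), and the immune markers to 442.5 and 822.6 CPM against 3901 and 5470 CPM (8 of 11 called lower). The epithelial markers summed to 244 and 214 CPM against 565 and 173 CPM. That sum overlapped between the groups, and AGER and SFTPC made up most of it in every library except GFP-NEG replicate 2, whereas 6 of the 9 markers were lower in both GFP-HI libraries than in either GFP-NEG library, and 2 of them, CDH1 and CLDN4, were called lower. Smooth muscle and pericyte markers summed to 2468 and 2858 CPM against 2788 and 451.5 CPM, with 2 of 10 called higher (CSPG4 and PDGFRB) and 4 called lower (DES, MCAM, MYH11 and RGS5). Of 6 listed mesothelial markers, only 3 (BNC1, CALB2 and WT1) were found by name among the counted genes. These summed to at most 3.62 CPM in any library, and none of them was tested. The threshold for a call was an adjusted p-value under 0.05 in edgeR's quasi-likelihood test, with Benjamini-Hochberg adjustment over all 19682 genes tested, and every adjusted p-value below is from that test unless another is named. Over all tested genes the median log2 fold change was -0.25, and it shifted to -0.68 under scaling by library size alone, under which all 15 calls described next were kept.

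Of the 43 genes, 41 had at least 1 count in some library, and 31 passed the filter on low counts. In GFP-HI, 5 rose, which is 16.1% of the 31 against 8.35% of all tested genes. These were CDH11, CDH13, PCDH9, PCDH18 and PCDHGA4. Another 10 fell in GFP-HI, 32.3% of the 31 against 27.6% of all tested genes, a share near that background. They were CDH6, CDH10, CDH12, CDH24, CDHR1, PCDH1, PCDH7, PCDH8, PCDH12 and PCDHB1. The other 16 did not pass the threshold. Both GFP-HI libraries lay above both GFP-NEG libraries in 8 of the 31 genes and below them in 15, which is the case for 27.7% and 42.0% of all tested genes. The median log2 fold change of the 31 was -0.85, beside -0.25 for all tested genes. Genes that pass the filter through 1 group alone are bound to differ, so these counts describe the genes and are no test of the family.

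The genes that rose held most of the family's counts in every library except GFP-NEG replicate 2. All 43 genes together took 0.125% and 0.0907% of the GFP-HI libraries against 0.0579% and 0.0320% of the GFP-NEG libraries. The 5 genes that rose accounted for 93.3% and 92.9% of those counts in GFP-HI, against 75.4% and 42.7% in GFP-NEG. The other 38 genes summed to 91.8 and 79.2 CPM in GFP-HI and to 139 and 141.5 CPM in GFP-NEG. The larger total in GFP-HI lay in the 5 genes, and the remainder of the family summed to less in both GFP-HI libraries than in either GFP-NEG library. The 5 were picked from these data as higher and the remainder holds the genes that fell, so this division was partly fixed by the picking. These sums are not corrected for transcript length.

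**Figure D1:**
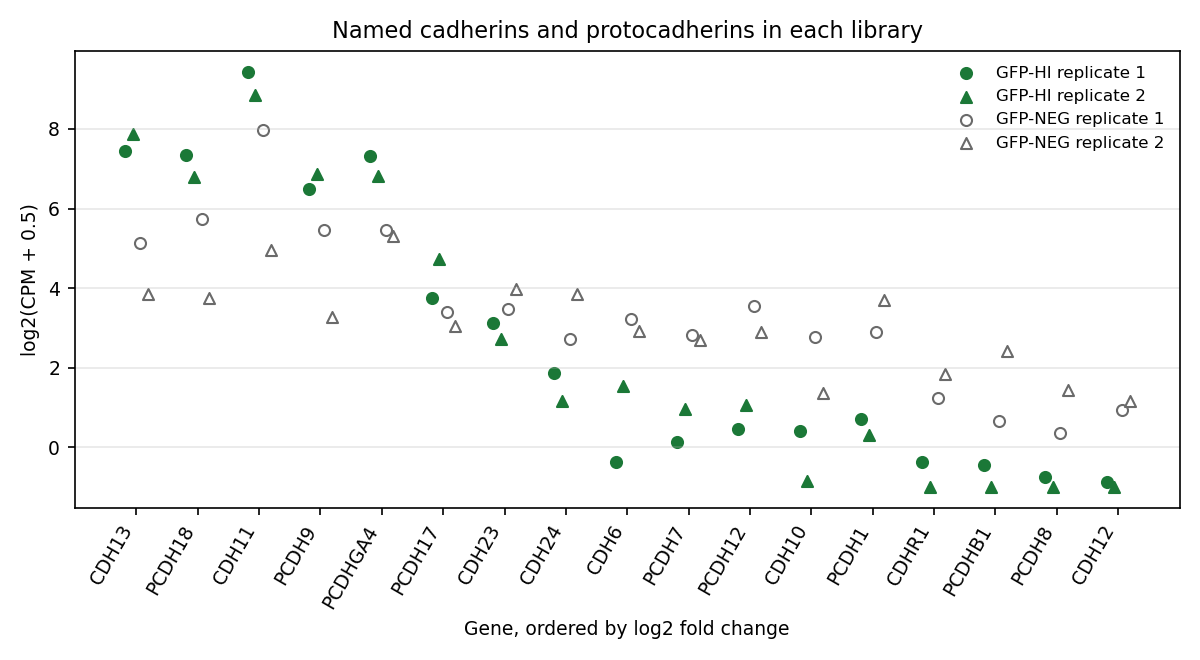
Level of the 17 named cadherins and protocadherins in each library, as log2(CPM + 0.5), with genes ordered by fold change; filled green symbols are GFP-HI, open grey symbols GFP-NEG, circles replicate 1 and triangles replicate 2. For CDH13, PCDH18, CDH11, PCDH9 and PCDHGA4 both GFP-HI values lie above both GFP-NEG values, and from CDH24 rightwards both lie below.

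Among the classical cadherins, CDH11 rose. CDH11 is a type II cadherin known from mesenchymal cells, where it holds fibroblasts to one another. It was at 696 and 458 CPM in GFP-HI replicates 1 and 2 and at 252 and 30.4 CPM in GFP-NEG replicates 1 and 2. Both GFP-HI values exceeded both GFP-NEG values, but the GFP-NEG libraries lay far apart. The log2 fold change was 2.03 (SE 0.71, adjusted p of 0.0150). SE, the standard error, was derived from the test, as the absolute log2 fold change divided by the square root of the F statistic. It is no separate estimate of error. With the replicate number as a block the log2 fold change was 2.69 (edgeR adjusted p of 0.0036). CDH11 made up 50.7% of the family's counts in GFP-HI replicate 1 (exact 95% binomial interval 50.2 to 51.3%, which covers counting error only), 41.3% in GFP-HI replicate 2, and 44.5% and 12.3% in the GFP-NEG replicates 1 and 2. The last library, where the fibroblast marker sum was also lowest, stood apart. Without GFP-NEG replicate 1 the log2 fold change was 4.25, and without GFP-NEG replicate 2 it was 1.20 and no longer past the threshold (adjusted p of 0.477). The call was also lost without GFP-HI replicate 1 or 2 (adjusted p of 0.117 and 0.0653).

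The other type II cadherins that passed the threshold fell. CDH6, first known from kidney, had GFP-HI counts of 6 and 48 and GFP-NEG counts of 57 and 65, which is 0.272 and 2.38 CPM against 8.85 and 7.13 CPM. The GFP-HI libraries differed from each other but both lay under GFP-NEG. Its log2 fold change was -2.59 (SE 0.96, adjusted p of 0.0230). It was -4.80 without GFP-HI replicate 2 and -1.67 without GFP-HI replicate 1, where the call was lost (adjusted p of 0.253), as it was without GFP-NEG replicate 1 (adjusted p of 0.0975).

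CDH24 was at 3.17 and 1.74 CPM in GFP-HI against 6.06 and 13.9 CPM in GFP-NEG. GFP-NEG replicate 2 was the highest library. The log2 fold change was -2.03 (SE 0.83, adjusted p of 0.0414), and without GFP-NEG replicate 2 it was -1.30 (adjusted p of 0.438). Without GFP-HI replicates 1 and 2 in turn the adjusted p was 0.0905 and 0.255.

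CDH10 and CDH12 are type II cadherins known from brain. CDH10 had GFP-HI counts of 18 and 1 and GFP-NEG counts of 41 and 19, and its log2 fold change was -3.24 (SE 1.26, adjusted p of 0.0304). The call was absent without GFP-HI replicate 2 (adjusted p of 0.273) and without GFP-NEG replicate 1 (adjusted p of 0.441), with log2 fold changes of -2.33 and -2.24, and the value was -6.08 without GFP-HI replicate 1. CDH12 had 1 and 0 counts in GFP-HI against 9 and 16 in the shallower GFP-NEG libraries (adjusted p of 0.00136), and at 1 count no fold is given. Its adjusted p was 0.109 without GFP-NEG replicate 1 and 0.278 without GFP-NEG replicate 2.

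Of the other type II genes, CDH18, CDH7 and CDH8 were tested and not called. CDH18 was at 2.45 and 2.68 CPM in GFP-HI against 9.78 and 5.70 CPM in GFP-NEG, so the groups did not overlap, with an adjusted p of 0.157. CDH7 was at 4.08 and 4.02 CPM against 10.4 and 2.08 CPM, and GFP-HI lay between the GFP-NEG libraries. CDH8 had 25 and 6 counts against 6 and 12. CDH9, CDH20 and CDH22 had at most 5 counts in any library and were not tested. CDH19, known from Schwann cells, had 0 counts in all 4 libraries, where 3 counts would be 0.136 and 0.149 CPM for GFP-HI, and 0.466 and 0.329 CPM for GFP-NEG. Schwann cell and neural markers summed to 15.0 and 30.6 CPM against 41.1 and 94.6 CPM, mostly MBP in GFP-NEG (29.8 and 77.6 CPM), while SOX10 was at 6.12 and 16.0 CPM against 4.66 and 4.39 CPM.

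No type I cadherin of the 4 examined passed the threshold. CDH2 (N-cadherin), a cadherin of neural, muscle and mesenchymal cells, was at 9.11 and 7.24 CPM in GFP-HI against 5.43 and 6.25 CPM in GFP-NEG. Both GFP-HI values were above both GFP-NEG values, but by less than the error: the log2 fold change was 0.48 (SE 0.76, adjusted p of 0.667). CDH3 (P-cadherin), found in basal epithelial cells, had GFP-HI counts of 6 and 2 and GFP-NEG counts of 6 and 5 (adjusted p of 0.231). CDH15 (M-cadherin of muscle) and CDH4 (R-cadherin) had at most 22 counts and were not tested. The epithelial and endothelial cadherins that the rule leaves out both fell in GFP-HI: CDH1 was at 16.4 and 4.36 CPM against 39.4 and 27.7 CPM (adjusted p of 0.00953), and CDH5 at 29.2 and 19.6 CPM against 230 and 69.4 CPM (adjusted p of 7.99e-05). The CDH1 call was lost without GFP-HI replicate 2, GFP-NEG replicate 1 or GFP-NEG replicate 2 (adjusted p of 0.247, 0.118 and 0.0528), and that of CDH5 without GFP-NEG replicate 1 (log2 fold change -1.51, adjusted p of 0.0756).

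**Figure D2:**
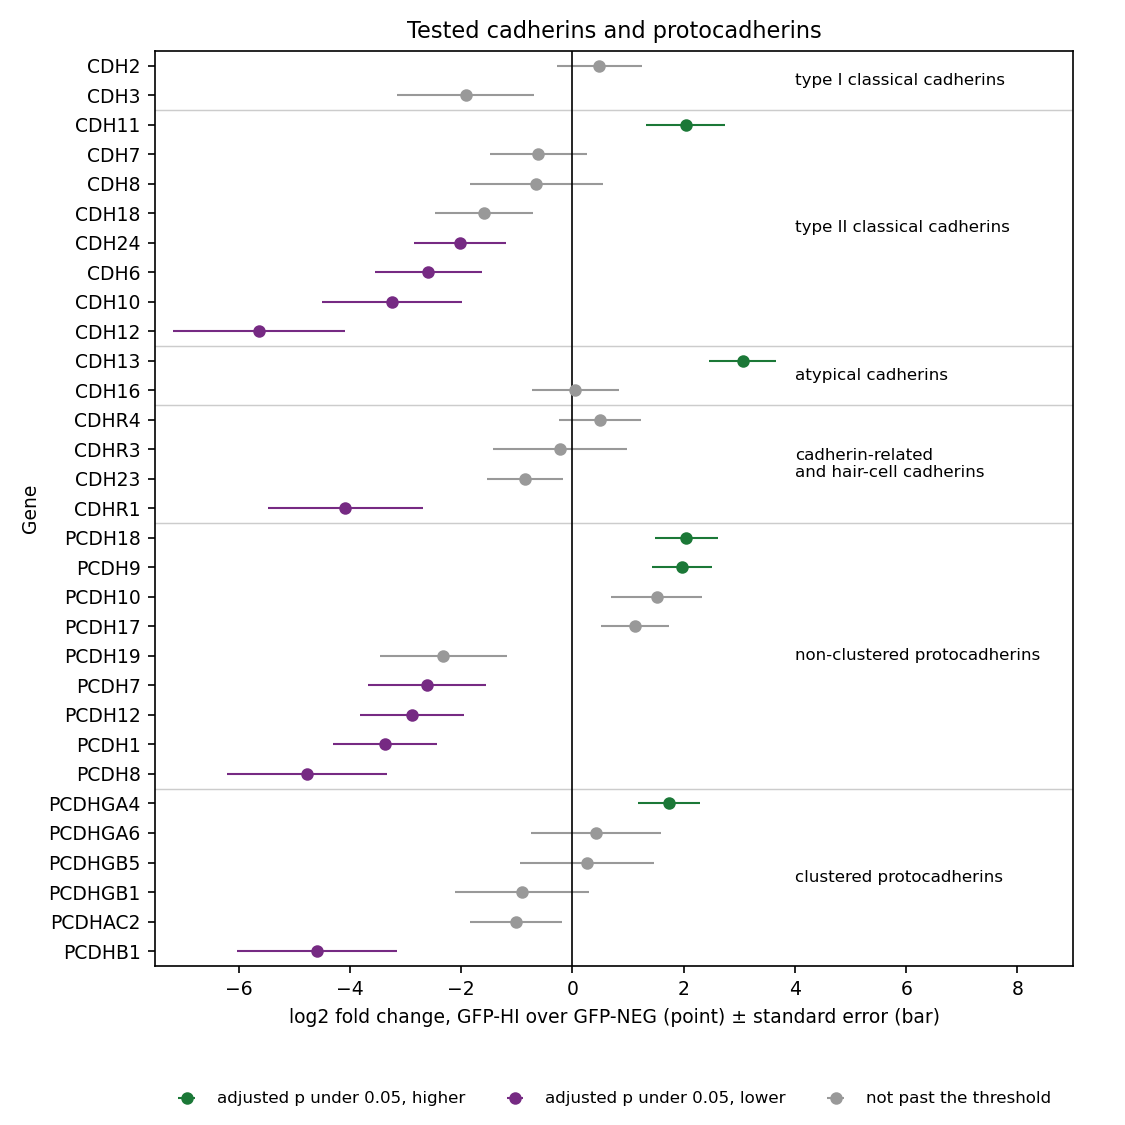
Fitted log2 fold change (points) with standard error (bars) of the 31 tested genes, grouped by subfamily; green passed the threshold as higher in GFP-HI, purple as lower, and grey did not pass. The 5 green points lie between 1.73 and 3.06, and the type II and non-clustered groups hold genes of both directions. The bars are derived from the F statistic of the test.

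CDH13 (T-cadherin) had the largest increase of the 43 genes. It has no tail, is held in the membrane by a lipid anchor and binds adiponectin. It was at 173 and 232.5 CPM in GFP-HI against 34.8 and 13.9 CPM in GFP-NEG. Every GFP-HI value was several times every GFP-NEG value. The log2 fold change was 3.06 (SE 0.61), that is 8.34-fold (adjusted p of 1.41e-05). It lay between 2.54 and 3.86 over the fits without 1 library, and only the fit without GFP-NEG replicate 2 missed the threshold (adjusted p of 0.0567). The other atypical cadherins were not called: CDH16, known from kidney tubules, was at 11.6 and 1.49 CPM against 12.0 and 0.877 CPM, and CDH17, known from intestine, had at most 15 counts.

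Cadherin-related genes were low in both groups. CDHR1, known from photoreceptors, had GFP-HI counts of 6 and 0 and GFP-NEG counts of 12 and 28 and was called lower (adjusted p of 0.0118), but not with the replicate number as a block (adjusted p of 0.0532). Nor was it called without GFP-HI replicate 2, GFP-NEG replicate 1 or GFP-NEG replicate 2 (adjusted p of 0.130, 0.0913 and 0.329). CDH23, a tip-link protein of hair cells, was at 8.16 and 6.10 CPM in GFP-HI against 10.6 and 15.1 CPM in GFP-NEG, and the groups did not overlap. Its log2 fold change was -0.85 (SE 0.68, adjusted p of 0.347). In the RefSeq annotation its extent overlaps 4 other protein-coding genes, among them PSAP and VSIR, so its counts are uncertain. CDHR3, known from ciliated airway cells as a rhinovirus receptor, was at 1.09 and 1.59 CPM against 1.24 and 1.86 CPM, and its extent overlaps ATXN7L1. CDHR4 was at 12.5 and 5.30 CPM against 9.78 and 2.96 CPM. CDHR2 and CDHR5, which link microvilli of the intestinal brush border, had 0 counts in both GFP-HI libraries and at most 30 in GFP-NEG, and were not tested. With no filter on low counts CDHR2 was called lower.

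All 9 non-clustered protocadherins passed the filter; 2 rose (22.2%, against 8.35% of all tested genes), 4 fell (44.4% against 27.6%) and 3 were not called. PCDH18, a delta-2 protocadherin, was at 162 and 110 CPM in GFP-HI against 52.9 and 13.0 CPM in GFP-NEG. PCDH9, a delta-1 protocadherin, was at 88.8 and 117 CPM in GFP-HI against 43.6 and 9.10 CPM in GFP-NEG. For both genes the groups were apart and GFP-NEG replicate 1 lay nearer to GFP-HI than GFP-NEG replicate 2 did. The log2 fold change of PCDH18 was 2.05 (SE 0.56, adjusted p of 0.00126). That of PCDH9 was 1.97 (SE 0.54, adjusted p of 0.00130). The size depended on which GFP-NEG library was present: without GFP-NEG replicate 1 the values were 3.38 and 3.50. Without GFP-NEG replicate 2 they were 1.36 and 1.24 and missed the threshold (adjusted p of 0.318 and 0.343), and PCDH9 also missed it without GFP-HI replicate 2 (adjusted p of 0.0532).

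PCDH10 and PCDH17, both delta-2 protocadherins, were higher in both GFP-HI libraries without passing the threshold. PCDH10 was at 8.74 and 9.72 CPM in GFP-HI against 2.79 and 3.62 CPM in GFP-NEG (log2 fold change 1.52, SE 0.82, adjusted p of 0.140). PCDH17 was at 13.0 and 26.0 CPM against 10.1 and 7.78 CPM, a log2 fold change of 1.12 (SE 0.61, adjusted p of 0.143). The replicates of PCDH10 were close to each other, whereas PCDH17 differed mainly through GFP-HI replicate 2.

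PCDH1, a delta-1 protocadherin of airway epithelium, was at 1.13 and 0.744 CPM in GFP-HI against 6.99 and 12.5 CPM in GFP-NEG. The groups were far apart in both replicates. Of the 9 epithelial markers, 6 were lower in both GFP-HI libraries too, and their part in the PCDH1 difference was not tested. Its log2 fold change was -3.37 (SE 0.94, adjusted p of 0.00165), and the call was lost in 1 of the 4 fits that left out a library (without GFP-NEG replicate 2, adjusted p of 0.0651). PCDH7, another delta-1 gene, was at 0.589 and 1.44 CPM against 6.52 and 5.92 CPM, with a log2 fold change of -2.61 (SE 1.07, adjusted p of 0.0414). Each of the 4 fits that left out a library put PCDH7 above the threshold, with adjusted p-values from 0.0809 to 0.226. PCDH8 (paraxial protocadherin) had 2 and 0 counts against 5 and 20 (adjusted p of 0.00396), and was not called with the replicate block (adjusted p of 0.0928) or without GFP-NEG replicates 1 and 2 in turn (adjusted p of 0.0947 and 0.529). PCDH19 had 22 and 17 counts against 32 and 39, groups that did not overlap in CPM, and was not called (adjusted p of 0.104), although DESeq2 called it lower.

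PCDH12, an endothelial protocadherin, was at 0.861 and 1.59 CPM in GFP-HI against 11.2 and 6.91 CPM in GFP-NEG. GFP-NEG replicate 1, the library with the highest endothelial marker sum, was also highest for PCDH12. The log2 fold change was -2.88 (SE 0.94, adjusted p of 0.00814), and adjusted p was 0.100 without GFP-HI replicate 1 and 0.0953 without GFP-NEG replicate 1. Per 1000 CPM of summed endothelial markers, PCDH12 was at 4.38 and 7.75 CPM in GFP-HI against 8.87 and 12.6 CPM in GFP-NEG, while CDH5 was at 149 and 95.9 against 183 and 127 CPM. Set against that marker list, the groups overlapped for CDH5, and PCDH12 remained lower in both GFP-HI libraries by a small margin. The part of endothelial cells in the PCDH12 difference was not tested.

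**Figure D3:**
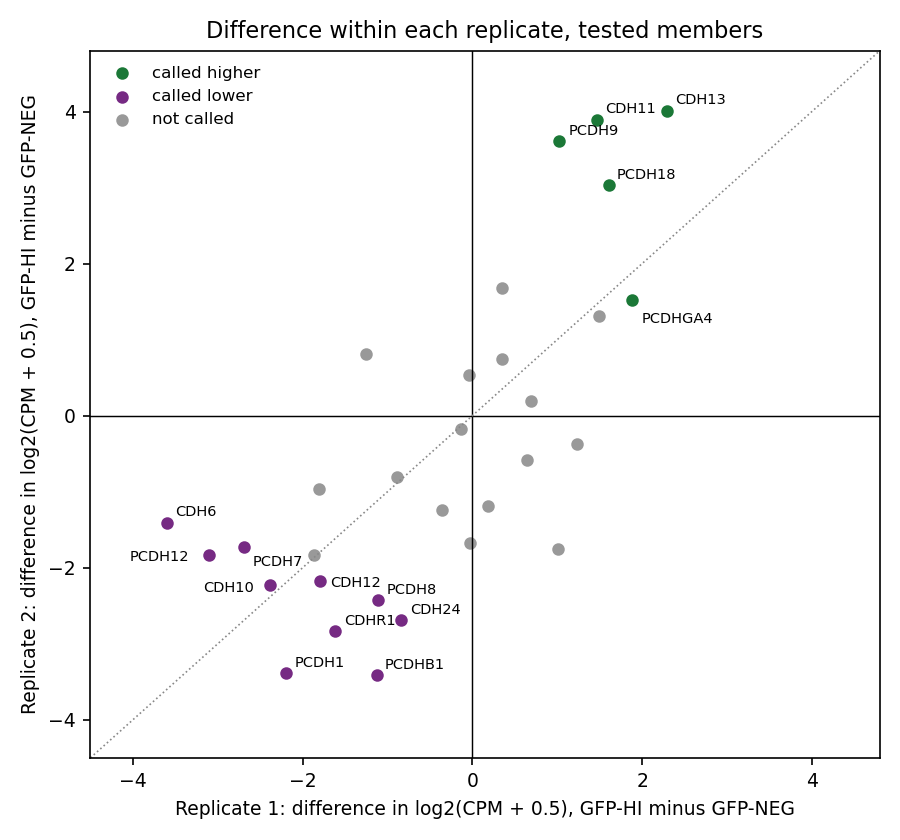
Difference in log2(CPM + 0.5) between GFP-HI and GFP-NEG within replicate 1 (horizontal) and within replicate 2 (vertical) for the 31 tested genes; green and purple points are genes called higher and lower, and the dotted line marks equal differences. The called genes lie in the upper right and lower left, with CDH11 at 1.47 and 3.89 and PCDHGA4 at 1.88 and 1.52.

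The clustered protocadherins are made from neighbouring genes whose variable first exons are, in the alpha and gamma clusters, joined to shared constant exons. Of the 9 rows with such names, 6 were tested and 3 were not. Of the 6, 1 rose (16.7%, against 8.35% of all tested genes), 1 fell (16.7% against 27.6%) and 4 were not called. PCDHGA4 was at 160 and 113 CPM in GFP-HI against 43.3 and 39.2 CPM in GFP-NEG, with little spread in GFP-NEG. Its log2 fold change was 1.73 (SE 0.56, adjusted p of 0.00747). It lay between 1.52 and 1.99 over the fits without 1 library, although the threshold was missed without GFP-NEG replicate 1 or 2 (adjusted p of 0.0873 and 0.212). PCDHGA4 is the gene that rose with the most even difference in the pair of replicates, 1.88 and 1.52 on the log2(CPM + 0.5) scale.

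PCDHGA4 took nearly all counts that carry a gamma-cluster name: 96.7% and 97.8% in GFP-HI against 95.5% and 87.1% in GFP-NEG (exact 95% binomial interval of the last value 83.5 to 90.2%). PCDHGA6 had GFP-HI counts of 63 and 37 and GFP-NEG counts of 6 and 23, PCDHGB1 25 and 8 against 2 and 23, and PCDHGB5 33 and 7 against 5 and 7. In each of these 3 genes the difference was positive within replicate 1 and negative within replicate 2. How reads on constant exons were divided among rows is not given in the sources used here, so this gene and its cluster cannot be told apart in the PCDHGA4 value.

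In the alpha and beta clusters the counts were low. PCDHAC2, an alpha-cluster gene, was at 4.71 and 2.97 CPM in GFP-HI against 4.81 and 10.6 CPM in GFP-NEG (adjusted p of 0.363). PCDHB1 had GFP-HI counts of 5 and 0 and GFP-NEG counts of 7 and 44 (adjusted p of 0.00542). It was not called without GFP-HI replicate 2 (adjusted p of 0.111) or without GFP-NEG replicate 2 (adjusted p of 0.539). PCDHA11 and PCDHA13 had counts in GFP-NEG replicate 2 alone, 12 and 3, and PCDHB7 had 0 in all 4 libraries.

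The 10 genes that fell were low in GFP-NEG as well. Genes listed as restricted to tissues other than lung served as a low-level reference. Of the 50 listed, 44 were in the tables and 18 were tested. Of those, 9 were called lower and 1 higher in GFP-HI, beside 27.6% and 8.35% of all tested genes. The list includes MBP, also counted among the neural markers above, at 29.8 and 77.6 CPM in GFP-NEG. The 95th percentile of the listed genes was 3.59 and 3.74 CPM in the GFP-HI libraries and 9.56 and 7.13 CPM in the GFP-NEG libraries. None of the 10 genes exceeded it in both GFP-NEG libraries (0 of 10). That count depends on MBP, which raises the percentile of GFP-NEG replicate 1. PCDH1 (6.99 and 12.5 CPM) and CDH24 (6.06 and 13.9 CPM) lay under the percentile in that library alone. For the odorant receptor genes the 95th percentile was at most 4.89 CPM in GFP-NEG, and CDH6, CDH24, PCDH1, PCDH7 and PCDH12 exceeded it in both libraries. Of the odorant receptor genes, 9 were tested, and all 9 were themselves called lower in GFP-HI, against 27.6% of all tested genes. Their 95th percentile was 0 CPM in both GFP-HI libraries. They could therefore pass the filter mainly through GFP-NEG, so this direction was largely fixed by the filter. All 5 genes that rose exceeded the tissue-restricted percentile in both libraries of both groups. When the GFP-HI counts were randomly reduced to the average GFP-NEG total, the same 5 genes rose and 5 of the 10 fell, namely CDH6, CDHR1, PCDH1, PCDH7 and PCDH12. CDH10 and CDH24 then missed the threshold (adjusted p of 0.0743 and 0.0682) at log2 fold changes of -2.73 and -1.92, and CDH12, PCDH8 and PCDHB1 no longer passed the filter. In DESeq2 with the replicate block, CDH12 and PCDH8 had no adjusted p-value, PCDH1 was the 1 gene of the other 8 still called lower, and the 5 increases were all called. The log2 fold changes of CDH6, CDH10, CDH24, PCDH7 and PCDH12 in that fit lay between -4.06 and -2.01, with adjusted p-values from 0.0534 to 0.195. The part of low-level counts in the decreases was not tested further.

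The fibroblast marker sum was higher in both GFP-HI libraries, as the 5 genes were. Per 1000 CPM of the summed fibroblast list, CDH11 was at 7.90 and 5.45 CPM in GFP-HI against 9.45 and 3.18 CPM in GFP-NEG. PCDH18 was at 1.84 and 1.31 against 1.99 and 1.36 CPM, and PCDH9 at 1.01 and 1.39 against 1.64 and 0.952 CPM. PCDHGA4 was at 1.82 and 1.35 against 1.63 and 4.10 CPM, highest in GFP-NEG replicate 2. In these 4 genes the groups overlapped on that scale. CDH13 stayed higher in both GFP-HI libraries, at 1.96 and 2.77 against 1.31 and 1.46 CPM. LGR5 differed on that scale as on the CPM scale, at 1.65 and 1.81 against 0.0583 and 0.0802 CPM.

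The outcome depended on how the markers were combined. COL1A1, COL1A2 and COL3A1 made up 60.5 to 88.3% of the sum. Relative to the geometric mean of the 11 markers (each with 0.5 CPM added), a setting chosen after the data were seen, CDH13 overlapped between the groups, at 0.0539 and 0.0635 against 0.0473 and 0.0625. PCDH18, PCDH9 and PCDHGA4 were then lower in both GFP-HI libraries, and CDH11 overlapped. These ratios describe 4 libraries and carry no test, and the part of fibroblast content in the increases was not tested beyond them.

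**Figure D4:**
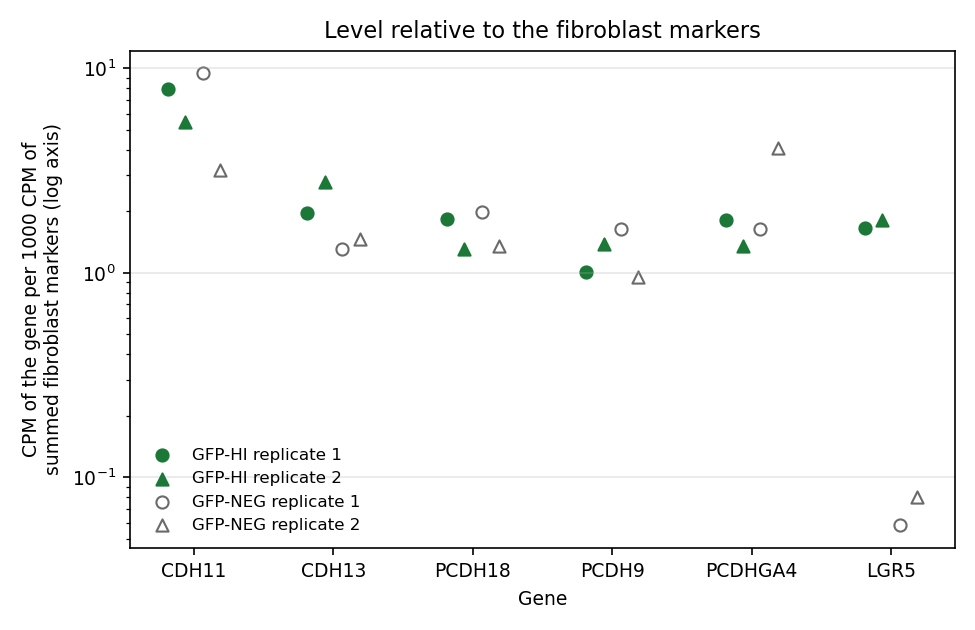
CPM of each gene per 1000 CPM of the 11 summed fibroblast markers, on a log axis, in each library; filled green symbols are GFP-HI, open grey symbols GFP-NEG, circles replicate 1 and triangles replicate 2. For CDH11, PCDH18, PCDH9 and PCDHGA4 the groups overlap, whereas LGR5 lies at 1.65 and 1.81 in GFP-HI and at 0.0583 and 0.0802 in GFP-NEG.

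Among 20 listed genes of the wider cadherin superfamily, 14 were tested; 4 rose (28.6%, against 8.35% of all tested genes) and 4 fell (28.6%, near the 27.6% of all tested genes). FAT4 and DCHS1, giant cadherins that bind each other across cell contacts, rose together with FAT1 and CLSTN1 (calsyntenin). FAT4 was at 154 and 132 CPM in GFP-HI against 31.5 and 9.76 CPM in GFP-NEG (log2 fold change 2.80, adjusted p of 2.71e-05). DCHS1 was at 123 and 55.7 CPM against 21.7 and 11.0 CPM (log2 fold change 2.45, adjusted p of 1.01e-04). Both lost the call without GFP-NEG replicate 2 alone (adjusted p of 0.0929 and 0.0999), as did CLSTN1 (adjusted p of 0.241). The log2 fold changes of CLSTN1 and FAT1 were 1.89 and 1.45 (adjusted p-values 0.00317 and 0.0324), and FAT1 was not past the threshold in DESeq2 (adjusted p of 0.0746) or under library-size or upper-quartile scaling, the filter of 1 CPM, or thinning. Without GFP-HI replicate 1, GFP-HI replicate 2 or GFP-NEG replicate 2 it missed the threshold as well (adjusted p of 0.0843, 0.134 and 0.626). The FAT1 value was 2.83 without GFP-NEG replicate 1 and 0.76 without GFP-NEG replicate 2. CELSR2, CELSR3, DSG1 and FAT2 fell, all from levels under 10 CPM in GFP-NEG.

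Of 24 listed cadherin partners, 21 were tested; 3 rose (14.3%), 4 fell (19.0%) and 14 were not called, beside 8.35% and 27.6% of all tested genes. The genes that rose were PKP4, a catenin-related plaque protein (log2 fold change 2.42, adjusted p of 1.21e-04), PDLIM1 (2.02, adjusted p of 0.00523) and LIMA1, which links catenins to actin (1.83, adjusted p of 0.00268). All 3 lost the call without GFP-NEG replicate 2, and PDLIM1 also without GFP-HI replicate 2. Without GFP-NEG replicate 1 the values of PDLIM1 and LIMA1 were 3.31 and 2.97. CTNNA3, NECTIN4, PKP1 and PKP2 fell, again from under 10 CPM. The core catenins did not pass the threshold. CTNNB1 (beta-catenin) was at 873 and 802 CPM in GFP-HI against 556 and 230 CPM in GFP-NEG, apart in both replicates, with a log2 fold change of 1.09 (SE 0.77, adjusted p of 0.281). CTNNA1 (alpha-catenin) was at 264 and 301 CPM against 216 and 72.0 CPM (adjusted p of 0.235), and CTNND1 (p120-catenin) at 168 and 87.1 against 112 and 47.9 CPM, where the groups overlapped.

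**Figure D5:**
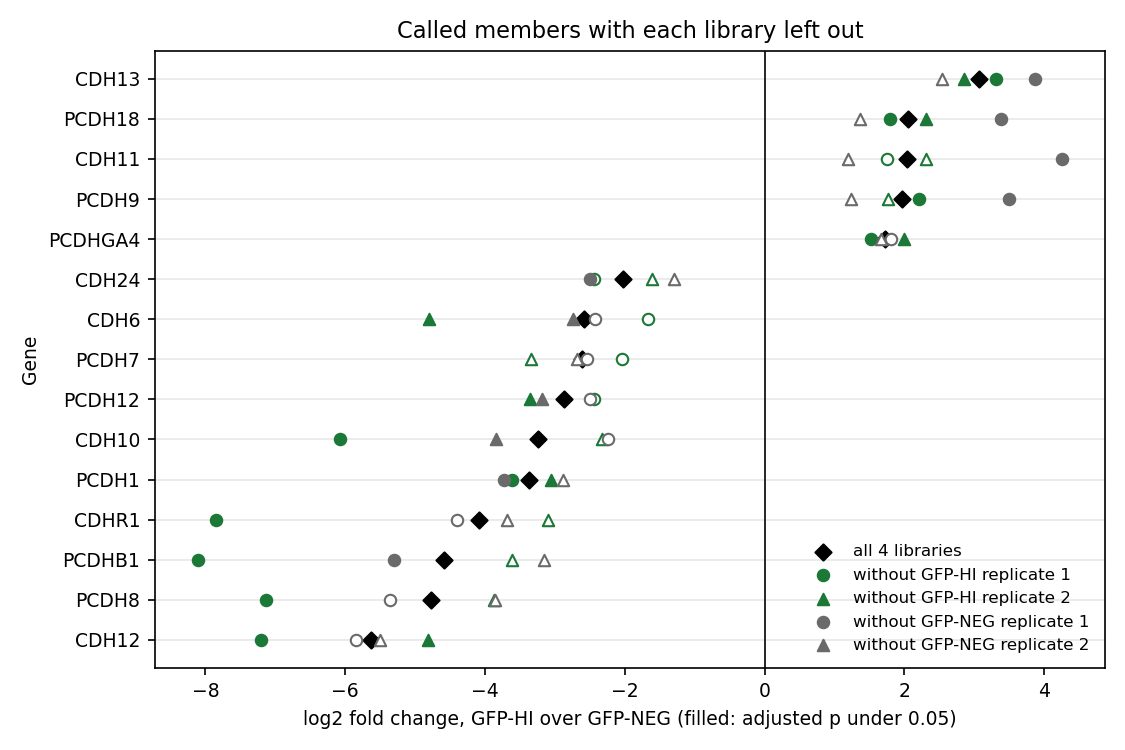
Log2 fold change of the 15 called genes with all 4 libraries (diamonds) and with each library left out in turn (green: a GFP-HI library, grey: a GFP-NEG library; circles replicate 1, triangles replicate 2); filled symbols passed the threshold in that fit. No gene changed direction, which was hardly possible because the groups were apart in CPM in all 15 genes.

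Which increases passed the threshold differed with the GFP-NEG library present. Without GFP-NEG replicate 1, 4 of the 5 genes passed the threshold, and without GFP-NEG replicate 2, 0 passed in edgeR (2 at an unadjusted p under 0.05). In that fit 1.04% of all genes were called higher, against 8.35% with all 4 libraries. In the authors' deposited table, which lists 27 of the 43 genes, the same 5 genes are higher and 6 are lower in the GFP-positive group at the same threshold, against 8.20% and 11.2% of all genes in that table. All 11 were called here in the same direction. The 4 genes called here alone were CDH12, CDHR1, PCDH8 and PCDHB1, for which that table gives no adjusted p-value.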

How the data were processed

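Per the submitters' processing notes, featureCounts, Subread 1.5.2 and DESeq2 1.37.6 were used, with no role given; the aligner, strand setting and build are not given in the sources used here. The authors deposited raw counts per gene for each library and, per the file headers, a comparison table with a log2 fold change and an adjusted p-value. The counts repeated in that table equal those of the single tables, and 4 columns of normalized values per sample were not used. Counts were fitted with edgeR 4.0.16 (R 4.3.3): TMM scaling, filterByExpr (19682 of 29263 genes kept, 99.8% of counts), group as the only term, quasi-likelihood F test, Benjamini-Hochberg adjustment. The genewise spread was moderated fully to the common trend, so a gene's own scatter carried little weight. CPM are counts over the TMM-scaled library total; 1 count is 0.0453 and 0.0496 CPM in GFP-HI and 0.155 and 0.110 CPM in GFP-NEG. The procedure was tested on simulated data, where it called a small part of the changed genes and no unchanged gene. Far fewer genes were changed there than were called here, and it gave few calls, so those rates need not hold for these data. A gene that was not called may still differ.

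Within-replicate differences use log2(CPM + 0.5). Alternatives were RLE, upper-quartile and library-size scaling, other filters, DESeq2 1.42.0, a replicate block and leaving out each library, where the lone library is assumed to vary like the other group. Headings of the deposited table name pig 1 and pig 2 in both groups, which pairs the replicate numbers, and deviations of same-numbered libraries correlated with r of 0.179 across genes. Named are genes of the family at 10 CPM or more in either group, or called with groups apart (up to 12), and non-members by fixed lists. Of the Ensembl identifiers, 834 took a symbol from the name table provided. The members and lists were chosen with earlier results of these data known. Which genes overlap or follow each other was read from RefSeq's Sscrofa11.1 table.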

Additional observations from a re-analysis of the deposited data

How the results depend on the processing

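The 5 genes that rose were called in all 9 alternatives that kept every library (RLE, library-size and upper-quartile scaling, both other filters, DESeq2, the replicate block, DESeq2 with the block, and thinning); the last pair of settings was chosen with the data in view. With the replicate block, 8 of 10 lower genes passed the threshold, ending the calls of CDHR1 and PCDH8 and of no other named gene. The log2 fold changes of CDH11, CDH13, PCDH18, PCDH9 and PCDHGA4 with that block were 2.69, 3.18, 2.339, 2.335 and 1.71. Lower genes of the family numbered 1 (PCDH1) in DESeq2 with the replicate block, where all lower genes numbered 3273, 5 after thinning (3568 among all genes) and 0 above the tissue-restricted range. The value of 0 depends on MBP being in the tissue-restricted list. All higher genes numbered 888 under library-size scaling and 1083 under upper-quartile scaling. The family's median was -1.755 with no filter, where 41 genes were tested and CDHR2 replaced PCDH8 among the lower genes. When single libraries were left out, higher genes of the family ranged from 0 to 4, lower from 3 to 6, its median from -1.46 to -0.57, calls in the 2 partner lists from 1 to 13, all higher genes from 204 to 1539 and all lower genes from 1373 to 4680; the lowest count of higher genes came without GFP-NEG replicate 2. No named gene reversed its direction in 345 comparisons, of which 63 ended a call. Every named gene had its groups apart in CPM, so a reversal was hardly possible, and its absence is no test of stability. The shallow GFP-NEG libraries limit what can be said of genes under about 10 counts.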

Other observations

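CDH16, the kidney-type cadherin, differed between the replicates rather than between the sorted groups. It had 257 and 77 counts in the replicate 1 libraries of GFP-HI and GFP-NEG and 30 and 8 in the replicate 2 libraries. In an edgeR fit with group in the model, chosen after the data were seen, replicate 1 exceeded replicate 2 by a log2 difference of 3.32 (adjusted p of 0.00756). CDH16 was the 1 gene of 31 called in that fit, against 0.610% of all tested genes. AGER, a marker of alveolar type I cells, had the same order, at 103 and 113 CPM in replicate 1 and 13.0 and 13.9 CPM in replicate 2 (adjusted p of 4.41e-04), and was picked after its values were seen. SFTPC, a marker of alveolar type II cells, did not have that order (81.9 and 301 CPM in replicate 1, 170 and 62.0 CPM in replicate 2). FOXJ1 of ciliated cells was higher in replicate 1 within each group (2.63 against 1.49 CPM in GFP-HI, 7.61 against 3.73 CPM in GFP-NEG). Across the groups its replicates overlapped. In CDHR4, CDH7 and PCDHGB5 both replicate 1 libraries also lay above both replicate 2 libraries, without passing the threshold in that fit (adjusted p of 0.543 to 0.996). With CDH16 this makes 4 of 31 genes (12.9%), against 9.56% of all tested genes, and CDHR3 had the opposite order. Genes higher in replicate 1 only within each group, such as CDH11, are not in that count.

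In RefSeq's table CDH18, CDH12, CDH10, CDH9 and CDH6 follow one another on 1 chromosome as its type II cadherins, and all 5 were lower in both GFP-HI libraries than in either GFP-NEG library, an order seen in 42.0% of tested genes. CDH12, CDH10 and CDH6 passed the threshold, CDH18 did not, and CDH9, with 0 counts in GFP-HI and no more than 2 per GFP-NEG library, was not tested. CDH8, CDH11, CDH5 and CDH16, which follow one another on another chromosome, differed in direction: CDH11 rose, CDH5 fell and the groups overlapped for CDH8 and CDH16.

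PCDH20 is present under an identifier only and so is not among the 43 genes. Its counts were 6 and 8 in GFP-HI against 8 and 26 in GFP-NEG (adjusted p of 0.101).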
